A study of Mus musculus with 6 samples.

Results

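Red cell precursors carry, besides globin, a set of transcripts for transcription factors, heme enzymes, iron carriers and membrane proteins, and 33 such genes were followed in embryonic mouse diaphragm. The genes were listed by name, and 32 of the 33 were matched among the 23073 genes that hold a value, while Ahsp was not analysed here. They comprise 7 regulators, 9 genes of heme synthesis and iron uptake, 11 genes of the membrane and its skeleton, and 5 other late erythroid genes. Of the 32, 14 were listed as having transcripts largely confined to the erythroid lineage, and the other 18 as used by other tissues as well. The split is not sharp, since some of the 14 are also made by related blood cells.

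Diaphragm RNA was sequenced at E14.75 in 6 libraries, 2 in each of 3 groups. The erbB3 wild-type group (libraries 5 and 6) and the erbB3 mutant group (libraries 1 and 2), which lacks the neuregulin receptor needed by Schwann cells, are mRNA selected on oligo-dT beads from total RNA of whole muscle. The Wnt1-Ribotag group (libraries 1 and 2) is erbB3 wild-type, carries Wnt1-Cre, a Cre driver of the neural crest and its Schwann cells, and a Cre-dependent hemagglutinin tag on the ribosomal protein Rpl22, and its RNA was precipitated with ribosomes by an antibody against the tag from pooled diaphragms of a litter. The mRNA of the Wnt1-Ribotag group was selected on the same kind of beads, from a far smaller amount of RNA. Erythroid cells do not arise from the neural crest. Wnt1-Ribotag and mutant libraries differ in erbB3 genotype as well as in RNA preparation, and the effects of these cannot be told apart. The deposited values are RPKM, reads divided by gene length and library depth, with a low floor in place of 0. Depths worked out from these floors were 100178863 and 229922644 reads for wild-type 5 and 6, 130755581 and 230216660 for mutant 1 and 2, and 122770245 and 171266729 for Wnt1-Ribotag 1 and 2. Erbb3 itself had 16.5 and 15.8 RPKM in wild-type 5 and 6, 21.5 and 11.9 in mutant 1 and 2, and 19.5 and 25.3 in Wnt1-Ribotag 1 and 2, so its transcript level does not separate the genotypes. Sox10, a transcription factor of Schwann cells, had 2.89 and 2.16 RPKM in wild-type, 0.00854 and 0.0178 in mutant, and 15.5 and 32.2 in Wnt1-Ribotag libraries. Skeletal muscle markers (11, led by Acta1) summed to 2225 and 1861 RPKM in wild-type, 3530 and 1955 in mutant, and 2375 and 2151 in Wnt1-Ribotag libraries, so mutant 1 stood apart. Of the 11, 9 had a log2 fold change above 0 in the mutant, beside 7043 of all 23073 genes. Both mutant values were above both wild-type ones in 4 of the 11, beside 12.7% of the 14052 genes tested.

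In the embryo, definitive red cells mature in the fetal liver, where Gata1, Tal1 and Klf1 switch on the genes for globin, heme enzymes and membrane proteins in the same cells. As precursors mature they build a spectrin and ankyrin skeleton under a membrane rich in the anion exchanger band 3 and in blood group proteins, then expel the nucleus and lose their remaining RNA. Muscle receives these cells through its blood vessels, so that a muscle RNA sample can hold the transcripts of circulating red cells and their precursors. The source of the erythroid transcripts in the libraries used here was not tested.

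Every library had values above the floor for 31 of the 32 genes, and Trim58 was at the floor in Wnt1-Ribotag 2 only. The levels spanned a wide range, from a mean over the 6 libraries of 0.0748 RPKM for Trim58 to 46.3 RPKM for Alad, with Sptb at 434 RPKM because of the Wnt1-Ribotag libraries.

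**Figure D1:**
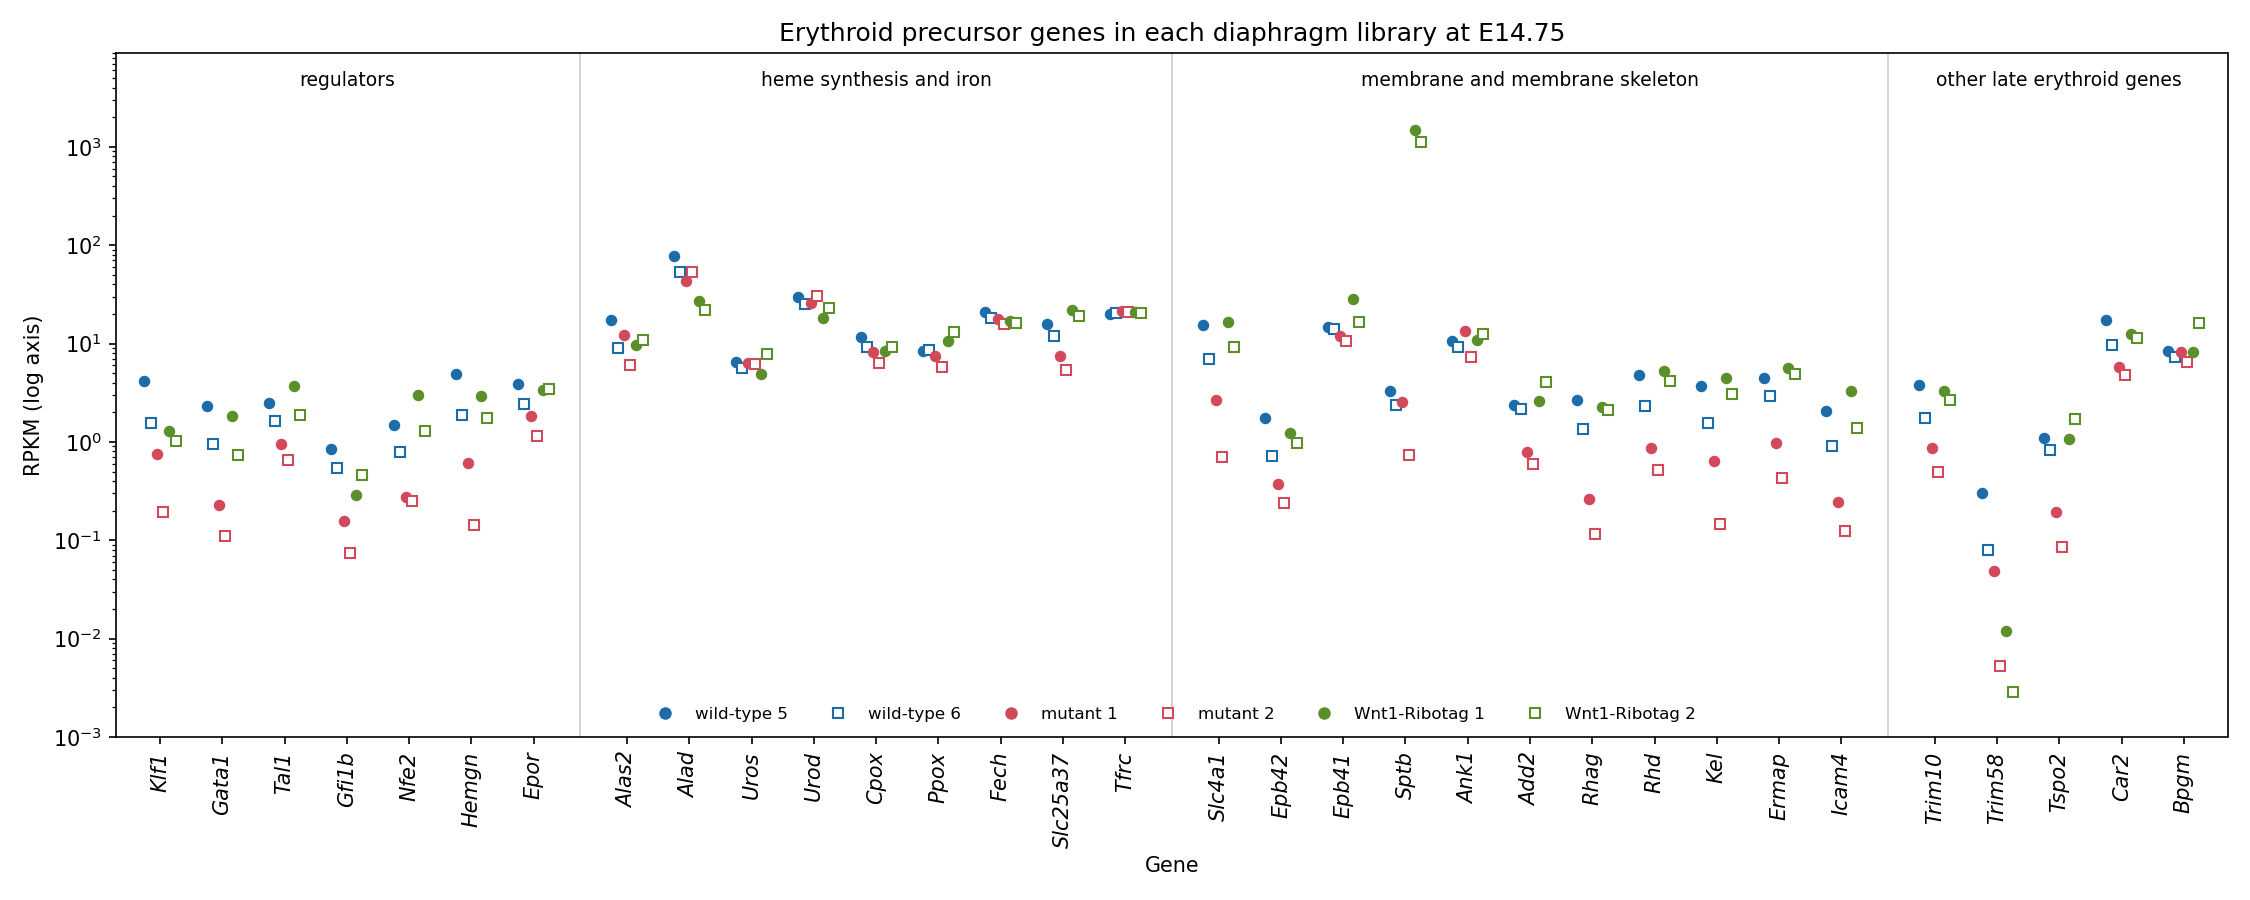
RPKM of the 32 genes in each library on a log axis, grouped by role, with a point for each library. Mutant points lie below the others for the regulators and most membrane genes, such as Slc4a1 at 2.69 and 0.696 RPKM, mutant and wild-type points overlap for Alas2, Alad, Uros and Urod, and Sptb stands at 1479 and 1114 RPKM in the Wnt1-Ribotag libraries.

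Mutant and wild-type muscle were compared to ask whether the erythroid transcripts of the muscle differ without erbB3. Regulator and most membrane transcripts had their lowest levels in the mutant libraries, while most heme enzyme transcripts lay closer together, and no single member passed the test. With limma on log2(RPKM + 0.5), 0 of the 30 members tested passed an adjusted p of 0.05, beside 0.171% of the 14052 genes tested, and 20 of 30 had an unadjusted p under 0.05, beside 12.0% of genes tested. Those 20 include all 9 members that reached the filter on low values only through the wild-type group, and 3 of these 9 are among the 7 members at least 2-fold lower, and all 9 are among those lower in all pairs, so these counts cannot be set against the shares of all genes. In whole-muscle RNA, fewer cells of a type and less RNA per cell cannot be told apart. Values of the mutant were below those of the wild-type in all 4 pairs of 1 library each in 24 of the 32 members, of which 22 were among the 30 tested, beside 37.4% of genes tested. They were at least 2-fold lower in all 4 pairs in 7 members, Slc4a1, Rhag, Rhd, Ermap, Add2, Hemgn and Gata1, beside 0.399% of genes tested. In the other direction, 0 members were at least 2-fold higher in all pairs, beside 0.0498% of genes tested, and Tfrc alone was higher in all pairs by any amount, beside 12.7%. Fold changes are on the log2(RPKM + 0.5) scale, which understates the difference for genes of low level.
For the same reason medians are given over all members measured. The median log2 fold change was -1.01 over the 32 members and -0.03 over all 23073 genes. Among the 14052 genes tested it was -0.10, and median-ratio scaling between libraries moved it by 0.107. Without wild-type 6, 13 members passed the test, beside 0.644% of genes, without wild-type 5 only Rhag did, beside 0.756%, and scaling to the summed RPKM of all genes other than globins gave 9, beside 0.583%. Klf1, Gata1, Nfe2, Hemgn, Epb42, Rhag, Kel, Icam4 and Tspo2, among the members counted here, reached the filter only through the wild-type group. For this reason these counts too cannot be set against the shares of all genes. The count of members at least 2-fold lower in all pairs became 16 without wild-type 6 and 14 without mutant 1, and it became 1 with a pseudocount of 1, 4 with median-ratio scaling and 3 with quantile normalization.

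Across regulators the median difference of mutant from wild-type was -1.07 on the log2 scale (-1.89 with a pseudocount of 0.1), between -2.09 for Hemgn and -0.88 for Epor. All 7 were lower in all 4 pairs, of which 6 were tested, beside 37.4% of genes tested. Klf1, Gata1, Nfe2 and Hemgn reached the filter only through the wild-type group, so this count cannot be set against that share. Hemgn, a nuclear protein of erythroid progenitors and precursors, had 4.92 and 1.90 RPKM in wild-type 5 and 6, 0.617 and 0.142 in mutant 1 and 2, and 2.94 and 1.77 in Wnt1-Ribotag 1 and 2. Its mutant values lay below both other groups, which overlapped with each other, and its log2 fold change in the mutant was -2.09 (SE 0.39, limma, adjusted p = 0.111). Gata1, the zinc finger factor at the head of erythroid gene expression, had 2.30 and 0.964 RPKM in wild-type 5 and 6, 0.230 and 0.111 in mutant 1 and 2, and 1.84 and 0.738 in Wnt1-Ribotag 1 and 2. Its average in the mutant stood at 10.5% of that in the wild-type, and the wild-type and Wnt1-Ribotag values overlapped.
Tal1, a helix-loop-helix partner of Gata1 that endothelium also uses, had 2.51 and 1.65 RPKM in wild-type, 0.949 and 0.660 in mutant, and 3.69 and 1.89 in Wnt1-Ribotag libraries. For Nfe2, a leucine zipper factor of erythroid cells and megakaryocytes, the values were 1.49 and 0.786 RPKM in wild-type, 0.275 and 0.252 in mutant, and 3.03 and 1.29 in Wnt1-Ribotag libraries. Epor, the erythropoietin receptor, had 3.90 and 2.44 RPKM in wild-type, 1.85 and 1.14 in mutant, and 3.40 and 3.48 in Wnt1-Ribotag libraries. In each of these genes the mutant libraries were the lowest of the 6, and wild-type and Wnt1-Ribotag values overlapped. Klf1, the factor that activates adult β-globin, was singled out after its values were seen. It had 4.21 and 1.54 RPKM in wild-type, 0.758 and 0.196 in mutant, and 1.29 and 1.02 in Wnt1-Ribotag libraries, so that here the Wnt1-Ribotag values also lay below the wild-type ones. Gfi1b, a transcriptional repressor that was listed as lineage-confined although megakaryocytes make it too, lay between 0.0745 and 0.846 RPKM and did not reach the filter in the mutant comparisons.

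For heme synthesis and iron genes the median log2 fold change in the mutant was -0.36 (-0.11 without wild-type 5 and -0.14 without mutant 2), between -1.05 for Slc25a37 and 0.06 for Tfrc, and 4 of 9 were lower in all pairs, beside 37.4% of genes tested. Alad, which makes the pyrrole ring, had 78.4 and 53.7 RPKM in wild-type 5 and 6, 43.0 and 54.0 in mutant 1 and 2, and 27.0 and 21.9 in Wnt1-Ribotag 1 and 2. Wild-type and mutant values of Alad overlapped, and both Wnt1-Ribotag values were below them. Urod, a later enzyme of the pathway, had 29.5 and 25.1 RPKM in wild-type, 25.6 and 30.6 in mutant, and 18.4 and 22.8 in Wnt1-Ribotag libraries, with overlap between mutant and wild-type. For Tfrc, the transferrin receptor through which iron enters most dividing cells, the level was 20.2 and 20.6 RPKM in wild-type, 21.6 and 21.0 in mutant, and 20.9 and 20.6 in Wnt1-Ribotag libraries. These levels of Tfrc were the closest together of all members.
Slc25a37, mitoferrin, brings iron into mitochondria for heme synthesis. It had 15.9 and 11.9 RPKM in wild-type, 7.53 and 5.39 in mutant, and 21.8 and 19.1 in Wnt1-Ribotag libraries, with no overlap between any groups, and its log2 fold change in the mutant was -1.05 (SE 0.20, limma, adjusted p = 0.111). Alas2, the erythroid enzyme of the first step and the only heme enzyme here that is confined to the lineage, was singled out after its values were seen. Its RPKM was 17.21 and 9.074 in wild-type, 12.23 and 6.077 in mutant, and 9.629 and 11.03 in Wnt1-Ribotag libraries, so the groups overlapped, and the log2 fold change in the mutant was -0.51 (SE 0.35, limma, adjusted p = 0.522). The Alas2 gene overlaps Apex2 on the other strand over 23264 bases in the annotation, and Apex2 had between 3.04 and 4.90 RPKM. Whether strand was used in counting is not given in the sources used here. The rest of the enzymes stayed within narrower limits. Uros lay between 4.90 and 7.81 RPKM, Cpox between 6.39 and 11.8, Ppox between 5.76 and 13.0 and Fech between 15.8 and 21.0, and for Cpox, Ppox and Fech both mutant values were below both wild-type ones.

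Of the roles, membrane and membrane skeleton had the lowest median log2 fold change in the mutant, at -1.48 (-2.16 with a pseudocount of 0.1), and 9 of 11 were lower in all pairs, beside 37.4% of genes tested. Epb42, Rhag, Kel and Icam4 reached the filter only through the wild-type group, so this count too cannot be set against that share. The difference between roles was not tested. Slc4a1, band 3, the anion exchanger that anchors the skeleton, had 15.4 and 7.04 RPKM in wild-type 5 and 6, 2.69 and 0.696 in mutant 1 and 2, and 16.7 and 9.14 in Wnt1-Ribotag 1 and 2. The mutant values were the lowest, wild-type and Wnt1-Ribotag values overlapped, and the log2 fold change in the mutant was -2.49 (SE 0.47, limma, adjusted p = 0.111). Slc4a1 lies at chr11:102348824-102366203 on the minus strand of GRCm38. In the same libraries Slc4a1 stood at 89.4% and 77.6% of the Alas2 level in wild-type, 22.0% and 11.5% in mutant, and 173% and 82.8% in Wnt1-Ribotag libraries, on the RPKM scale.
Rhag, the glycoprotein partner of the Rh complex, had 2.68 and 1.35 RPKM in wild-type, 0.263 and 0.116 in mutant, and 2.29 and 2.13 in Wnt1-Ribotag libraries. Mutant libraries averaged 9.38% of the wild-type level, the lowest percentage of the 32 members, and the log2 fold change was -1.82 (SE 0.27, limma, adjusted p = 0.0608). Rhd, the Rh blood group protein, had 4.75 and 2.34 RPKM in wild-type, 0.861 and 0.517 in mutant, and 5.31 and 4.15 in Wnt1-Ribotag libraries. The log2 fold change of Rhd in the mutant was -1.71 (SE 0.29, limma, adjusted p = 0.0924). Ermap, an immunoglobulin-like erythroblast membrane protein, had 4.51 and 2.91 RPKM in wild-type, 0.966 and 0.425 in mutant, and 5.70 and 4.93 in Wnt1-Ribotag libraries. Here all 3 groups were apart, and the log2 fold change in the mutant was -1.83 (SE 0.27, limma, adjusted p = 0.0608).
Kel, the Kell blood group endopeptidase, had 3.69 and 1.56 RPKM in wild-type, 0.640 and 0.145 in mutant, and 4.52 and 3.06 in Wnt1-Ribotag libraries. Icam4, an adhesion protein of erythroblasts, had 2.07 and 0.901 RPKM in wild-type, 0.244 and 0.123 in mutant, and 3.32 and 1.40 in Wnt1-Ribotag libraries. In both, the mutant libraries were the lowest, while wild-type and Wnt1-Ribotag libraries overlapped. Add2, β-adducin, caps the actin of the skeleton and is also used in brain. It had 2.36 and 2.18 RPKM in wild-type, 0.786 and 0.590 in mutant, and 2.60 and 4.09 in Wnt1-Ribotag libraries. All 3 groups were apart, and the mutant differed from wild-type by -1.22 on the log2 scale (SE 0.17, limma, adjusted p = 0.0519). Wild-type 6 had 92.4% of the wild-type 5 level of Add2, and 45.7% of that of Slc4a1. When only genes of a mean RPKM of at least 1 were tested, Add2, Rhag and Ermap passed, beside 0.271% of genes, but all 3 reached that mean only through the wild-type group.
Epb41, a protein that ties spectrin to actin, had 14.72 and 14.24 RPKM in wild-type, 11.86 and 10.48 in mutant, and 28.28 and 16.48 in Wnt1-Ribotag libraries, with the mutant lowest and the 3 groups apart. Ank1, erythroid ankyrin, of which muscle makes a short form, had 10.7 and 9.22 RPKM in wild-type, 13.3 and 7.22 in mutant, and 10.8 and 12.4 in Wnt1-Ribotag libraries, with overlap between mutant and wild-type. Sptb, erythroid β-spectrin, had 3.27 and 2.36 RPKM in wild-type and 2.54 and 0.738 in mutant muscle, which overlapped. Epb42, a protein that binds band 3, lay between 0.240 and 1.75 RPKM, with both mutant values below the wild-type ones. In the annotation Ank1 also overlaps Mir486 and, on the other strand, Gm15816, which had between 12.5 and 23.6 RPKM. Of the heme genes, Uros overlaps Bccip by 740 bases, Ppox overlaps B4galt3 by 907 and Cpox overlaps Gpr15 by 204, each on the other strand, and Bccip had between 29.4 and 53.1 RPKM.

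Among the other late genes the median was -1.20 on the log2 scale in the mutant, -0.82 without wild-type 5 and -0.79 with a pseudocount of 1. Trim10, a RING finger protein of terminal erythroid maturation, had 3.81 and 1.76 RPKM in wild-type, 0.866 and 0.495 in mutant, and 3.29 and 2.64 in Wnt1-Ribotag libraries. Tspo2, an erythroid protein related to the translocator protein, had 1.10 and 0.832 RPKM in wild-type, 0.196 and 0.0846 in mutant, and 1.06 and 1.71 in Wnt1-Ribotag libraries, and its log2 fold change in the mutant was -1.20 (SE 0.19, limma, adjusted p = 0.0765). In both, the mutant libraries were the lowest and the other groups overlapped. Car2, carbonic anhydrase, had 17.4 and 9.67 RPKM in wild-type, 5.82 and 4.78 in mutant, and 12.6 and 11.3 in Wnt1-Ribotag libraries, with the mutant lowest. Bpgm, which makes the regulator of oxygen release, had 8.35 and 7.23 RPKM in wild-type, 8.12 and 6.56 in mutant, and 8.16 and 16.1 in Wnt1-Ribotag libraries, with overlap between mutant and wild-type. Trim58, a ubiquitin ligase of enucleating erythroblasts, lay between 0.00286 and 0.301 RPKM and was below the filter in every comparison.

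Grouped by use, the 14 lineage-confined members had a median of -1.66 on the log2 scale in the mutant, from -2.49 for Slc4a1 to -0.37 for Trim58, and the 18 others one of -0.46. The 13 lineage-confined members other than Alas2 had mutant means between 9.38% and 24.8% of the wild-type means, and Alas2 had 69.6%. The wild-type libraries also differed from each other. In 30 of the 32 members wild-type 5 was above wild-type 6, and mutant 1 was above mutant 2 in 30. The same counts were 15 and 14 for the 15 hepatocyte markers and 10 and 11 for the 11 skeletal muscle markers. They were 4 and 8 for the 10 endothelial markers and 9 and 3 for the 12 macrophage markers. Shares over all genes were not counted, so these orders cannot be called particular to the members. Over the 13 lineage-confined members other than Alas2, wild-type 6 had a median of 45.7% of the wild-type 5 level and mutant 2 had 43.9% of the mutant 1 level, while over the 14052 genes tested these medians were 104% and 94.4%. Of the 14 lineage-confined members, 13 had the order from high to low of wild-type 5, wild-type 6, mutant 1 and mutant 2, and Alas2, set apart after its values were seen, did not. This pattern was noticed after the values were seen and was found in 23 of all 32 members and in 10.9% of genes tested.

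The marker lists of other cells were read in the same libraries. The 15 hepatocyte markers, all of them measured, summed to 583 and 181 RPKM in wild-type 5 and 6, 25.2 and 20.5 in mutant 1 and 2, and 331 and 234 in Wnt1-Ribotag 1 and 2. Their most abundant gene, Afp, had 200 and 74.1 RPKM in wild-type, 6.35 and 3.24 in mutant, and 98.5 and 82.5 in Wnt1-Ribotag libraries, and among the 15 only Fabp1 was at the floor, in Wnt1-Ribotag 1. Of the 14 hepatocyte markers tested in the mutant, 5 passed the adjusted p of 0.05 in limma, all lower, beside 0.171% of genes tested. At least 2-fold lower in all pairs were 13, beside 0.399%. Fabp1 and Ambp, which passed the test, and Apob, Fgb and Fgg, which did not, reached the filter only through the wild-type group. Fabp1 had 0.122 and 0.0544 RPKM in mutant 1 and 2. All of these are among the 13, so both counts cannot be set against those shares. With no filter, and with all 6 libraries in the fit, 0 genes passed, so these calls were lost. The summed lineage-confined members without Alas2 had the same order among these 4 whole-muscle libraries, with 50.3 and 23.5 RPKM in wild-type 5 and 6 and 8.66 and 3.25 in mutant 1 and 2, and they stood at 46.5 and 32.7 in Wnt1-Ribotag 1 and 2. The part of liver RNA in the result was not tested. The ratio of the sum of these members to the hepatocyte sum was 8.62% and 13.0% in wild-type, 34.3% and 15.9% in mutant, and 14.1% and 14.0% in Wnt1-Ribotag libraries.
Globins followed another course. The 10 globin genes measured summed to 14922 and 7767 RPKM in wild-type 5 and 6, 11662 and 9469 in mutant 1 and 2, and 6263 and 5804 in Wnt1-Ribotag 1 and 2, with Hbq1b at the floor in both Wnt1-Ribotag libraries and Hbb-bh2 in Wnt1-Ribotag 2, and the most abundant, Hba-a1, had 5095 and 2686 RPKM in wild-type and 3818 and 3112 in mutant muscle. Both mutant sums lay between the wild-type ones. The lineage-confined members without Alas2 came to 0.337% and 0.303% of the globin sum in wild-type, 0.0743% and 0.0343% in mutant, and 0.742% and 0.564% in Wnt1-Ribotag libraries. Alas2 alone came to 0.115% and 0.117% in wild-type and 0.105% and 0.0642% in mutant muscle.
Summed platelet and megakaryocyte markers (10 measured, led by Pf4) had 18.6 and 20.2 RPKM in wild-type, 16.9 and 17.3 in mutant, and 24.3 and 16.0 in Wnt1-Ribotag libraries, with Gp9 and Clec1b at the floor in Wnt1-Ribotag 1 and Gp5 and Treml1 in Wnt1-Ribotag 2. Pf4 carried this sum, with 12.3 and 14.3 RPKM in wild-type and 13.3 and 14.3 in mutant muscle. Over the 4 pairs, 8 of the 10 markers were lower in the mutant. Of the 4 markers tested, 3 were lower, beside 37.4% of genes tested, and the others of the 8 did not reach the filter. Ppbp, at 19.1% of the wild-type mean, had the lowest percentage of the list. It reached the filter only through the wild-type group, so this count cannot be set against that share. Mast cell markers (10, led by Gata2 on average through 17.7 RPKM in Wnt1-Ribotag 2, and by Cpa3 in the other libraries) summed to between 8.43 RPKM in mutant 2 and 23.8 in Wnt1-Ribotag 2, with 15.2 and 10.8 in wild-type and 11.6 in mutant 1, with Mcpt4 at the floor in both Wnt1-Ribotag libraries and Fcer1a at the floor in all but Wnt1-Ribotag 2. Macrophage markers (12, led by C1qb) summed to 166 and 146 RPKM in wild-type, 132 and 163 in mutant, and 80.5 and 74.9 in Wnt1-Ribotag libraries, with Cd163, Siglec1 and Timd4 at the floor in Wnt1-Ribotag 1. These sums did not fall in the order of the hepatocyte sums over the whole-muscle libraries. Endothelial markers (10, led by Egfl7) summed to 69.3 and 73.0 RPKM in wild-type, 76.9 and 58.8 in mutant, and 64.7 and 72.6 in Wnt1-Ribotag libraries. Schwann cell markers (11, led by Ngfr) summed to 62.2 and 54.6 RPKM in wild-type, 49.4 and 27.5 in mutant, and 173 and 380 in Wnt1-Ribotag libraries. The Schwann cell sums had the order of the hepatocyte sums over the whole-muscle libraries, and the endothelial sums did not. The part of these cells in the result was not tested.

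**Figure D2:**
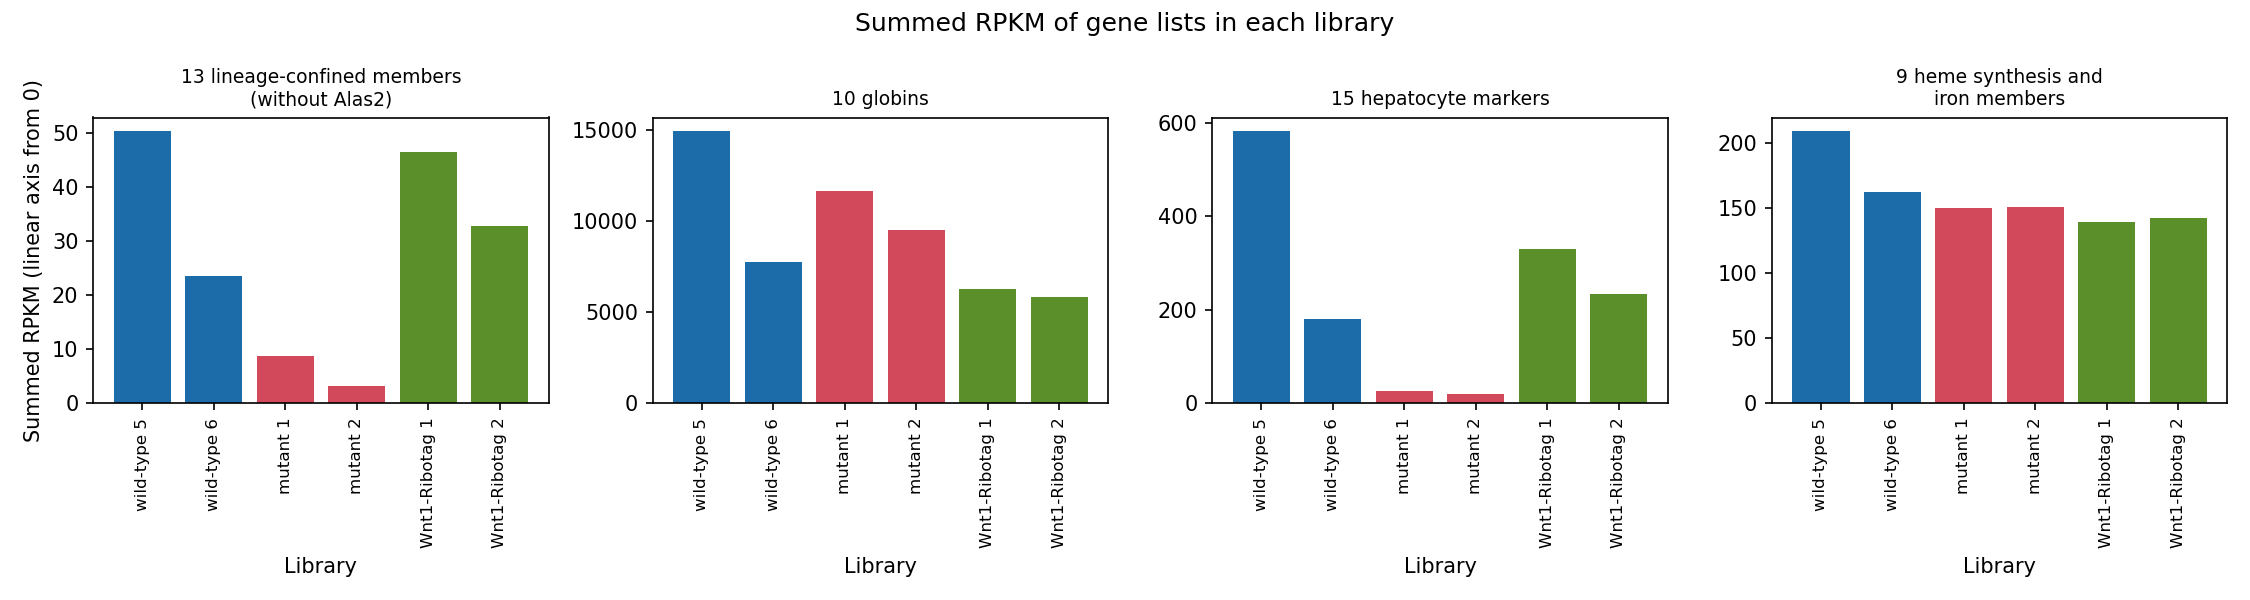
Summed RPKM of 4 gene lists, with a bar for each library and axes from 0. The lineage-confined members without Alas2 (50.3 RPKM in wild-type 5, 3.25 in mutant 2) and the hepatocyte markers (583 and 20.5) have their lowest bars in the mutant libraries, the mutant bars of the globins lie between the wild-type ones, and those of heme synthesis and iron genes stand at 150 and 151 RPKM.

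Wnt1-Ribotag RNA was compared with whole wild-type muscle to ask how transcript levels in the precipitate differ from those of the muscle. These groups differ in RNA preparation, in RNA amount and in the Cre and tag alleles at once. No precipitate from diaphragms without Cre was among the libraries. RNA bound to tagged ribosomes and RNA carried over from other cells therefore cannot be told apart. In limma 1 of the 31 members tested passed, beside 0.00694% of the 14418 genes tested, and 3 had an unadjusted p under 0.05, beside 19.5% of genes. That member, Sptb, was also the only gene of all those tested to pass. It had 1479 RPKM in Wnt1-Ribotag 1 and 1114 in Wnt1-Ribotag 2, against 3.27 and 2.36 in wild-type and 2.54 and 0.738 in mutant muscle. Its mean was 460-fold that of the wild-type, with a log2 fold change of 8.61 (SE 0.23, limma, adjusted p = 0.00311), higher in all 4 pairs. Where on the gene these reads lie was not looked at, since there is 1 value for each gene. By level it ranked 13 and 34 among the 23073 genes in Wnt1-Ribotag 1 and 2, and 10348 and 11340 in wild-type 5 and 6. Sptb lies at chr12:76580488-76710547 on the minus strand of GRCm38, and the annotation has it overlap its neighbour Plekhg3 by 1 base, whose level was between 3.83 and 5.56 RPKM in all libraries. When all genes were tested without a filter, the adjusted p of Sptb was 0.0619 in limma. Without Wnt1-Ribotag 1, 5 members passed, beside 31.0% of genes, and without Wnt1-Ribotag 2, 6 did, beside 41.8%.
The skeleton members Add2, Epb41 and Ank1 differed far less from wild-type, with log2 fold changes of 0.45, 0.56 and 0.22. Sptb was the 1 member at least 2-fold higher over the 4 pairs, beside 1.51% of genes tested, and 0 were at least 2-fold lower, beside 0.825%. Counted in either direction, 3 members were 2-fold different without wild-type 6, where Klf1 and Alad were lower, and 2 without Wnt1-Ribotag 1, where Alad was lower. Higher in all pairs by any amount were 8 of the 32 members, beside 23.3% of genes tested. Lower in all pairs were 7, of which 6 were tested and Trim58 was not, beside 31.0% of genes tested. Alad, at a log2 fold change of -1.40 (SE 0.25, limma, adjusted p = 0.156), had the lowest log2 fold change of the members. The median log2 fold change was 0.15 over the 32 members, -0.25 over regulators, -0.22 over heme and iron genes, 0.45 over membrane genes and 0.15 over other late genes, against 0.00 over all genes. Without wild-type 5 the median of regulators was 0.22 and that of heme and iron genes 0.01, and without wild-type 6 that of other late genes was -0.32.
Only Klf1, Gfi1b and Trim58 of the lineage-confined members were lower than wild-type in all pairs. The 13 lineage-confined members without Alas2 summed to 107% of the wild-type mean, the hepatocyte markers to 74.0%, the globins to 53.2% and the Schwann cell markers to 473%. For hepatocyte markers the direction turned without wild-type 5: sums were 583 and 181 RPKM in wild-type 5 and 6, and 331 and 234 in Wnt1-Ribotag 1 and 2. The lineage-confined sums were 50.3 and 23.5 RPKM in wild-type 5 and 6, and 46.5 and 32.7 in Wnt1-Ribotag 1 and 2.

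Set against mutant muscle, Wnt1-Ribotag RNA had higher levels of most regulators and membrane genes. In limma 4 of the 30 members tested passed, beside 1.19% of the 14325 genes tested, and 21 had an unadjusted p under 0.05, beside 19.3%, of which 8 reached the filter only through the Wnt1-Ribotag group. The 4 rose in Wnt1-Ribotag over mutant RNA in all 4 pairs, with log2 fold changes of 9.37 for Sptb (SE 0.43, limma, adjusted p = 0.00299), 2.32 for Ermap (SE 0.33, adjusted p = 0.0356), 2.14 for Rhd (SE 0.31, adjusted p = 0.0374) and 1.60 for Slc25a37 (SE 0.25, adjusted p = 0.0456). Of these, Sptb alone passed without mutant 2, with quantile normalization and without a filter. Slc25a37 did not pass with median-ratio scaling or without a trend, and neither Slc25a37 nor Rhd passed without mutant 1. Without Wnt1-Ribotag 1 and 2, 20 and 19 members passed, beside 17.8% and 26.0% of genes. Quantile normalization moved the all-gene median by -0.110 and scaling to the sum without globins moved it by 0.144. Values were at least 2-fold higher in all pairs in 13 members, beside 3.34% of genes tested, and at least 2-fold lower in 0, beside 0.607%. They were higher in all pairs by any amount in 24 of 32, of which 23 were among the 30 tested, beside 29.7% of genes tested, and lower in 3, beside 24.4%. The 3 were the heme and iron genes Alad, Urod and Tfrc, of which Tfrc turned higher with scaling to the sum without globins.
Of the 30 members tested here, 9 passed the filter only through the Wnt1-Ribotag group, and 6 of the 13 at least 2-fold higher are among them, so these counts too cannot be set against the shares of all genes. The median log2 fold change over all measured members was 1.05, and by role it was 1.29 for regulators, 0.00 for heme and iron genes (0.30 without Wnt1-Ribotag 1), 1.98 for membrane genes (2.85 and 1.45 with pseudocounts of 0.1 and 1) and 1.10 for other late genes, against 0.00 over all genes. Beside this, 9 of the 14 hepatocyte markers tested passed, all higher than in the mutant, against 1.19% of genes tested. Ambp and Fgb, which passed, and Apob, Fgg and Hnf4a, which did not, reached the filter only through the Wnt1-Ribotag group. The count of hepatocyte markers thus cannot be set against that share either. The mutant libraries enter this comparison and the first, and the wild-type libraries enter the first and the second, so the comparisons are not independent.

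Genes of the same pathways outside the members were counted from a list. Of 21 other genes of heme synthesis, heme transport and iron, 0 passed limma's adjusted p of 0.05 in the mutant, in Wnt1-Ribotag vs. wild-type or in Wnt1-Ribotag vs. mutant RNA, and 1, 5 and 3 had an unadjusted p under 0.05, beside 12.0%, 19.5% and 19.3% of genes tested. Their median log2 fold change in the mutant was -0.14, between -0.49 and 0.16. The most abundant were the ferritin chains Ftl1 and Fth1 and the protoporphyrinogen transporter Tmem14c, at mean levels of 1037, 384 and 61.2 RPKM. Of 26 other erythroid genes measured, 1 passed in mutant vs. wild-type, beside 0.171% of genes tested. It was Pklr, the pyruvate kinase of red cells and liver. Pklr had 3.89 and 1.97 RPKM in wild-type, 0.295 and 0.132 in mutant, and 3.49 and 1.14 in Wnt1-Ribotag libraries, and it fell in the mutant by 2.22 on the log2 scale (limma, adjusted p = 0.0312). Cldn13, a claudin of mouse erythroblasts, was the other gene of this list at least 2-fold lower in all pairs, with 2.95 and 1.38 RPKM in wild-type and 0.254 and 0.0933 in mutant muscle. The median of the 26 in the mutant was -0.36, and 19 were lower in all pairs, beside 37.4% of genes tested, and 12 had an unadjusted p under 0.05, beside 12.0%. Of these 12, 4 reached the filter only through the wild-type group, Pklr and Cldn13 among them, so that these counts and the call of Pklr rest in part on the filter. With no filter, and with all 6 libraries in the fit, 0 genes passed in mutant vs. wild-type, so the call of Pklr was lost. In Wnt1-Ribotag vs. mutant RNA 1 of the 26 passed in limma, beside 1.19% of genes tested. This gene, Tmcc2, had 9.33 and 6.59 RPKM in wild-type, 5.61 and 3.44 in mutant, and 16.7 and 17.3 in Wnt1-Ribotag libraries, at a log2 fold change of 1.83 (limma, adjusted p = 0.0417). The highest levels in this list belonged to Prdx2, Ldb1 and Add1, at means of 174, 57.1 and 40.7 RPKM.

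Promoters are shown for lineage-confined members that had low levels in the mutant together. RefSeq promoters on GRCm38.p6 were matched for 13 of the 14 lineage-confined members measured, all but Slc4a1. The motifs were chosen after the values of the members were seen. The 250 bases before the start were searched on both strands for the GATA motif, spelled AGATAA or, with other letters at its ends, AGATAG and TGATAA and also TGATAG, and for a CACCC motif with the letters CCNCNCCC. A GATA motif was in 11 of these 13 promoters (84.6%), against 26.5% of all 32851 promoters in the table and 36.8% of the 19 promoters of 13 other members. A CACCC motif was in 5 of the 13 (38.5%), against 45.9% of all promoters and 68.4% of those of other members. The pair of lineage-confined members without a GATA motif in the window were Gata1 and Tspo2. The sequences run 5′ to 3′ on the strand of the gene, from 250 bases before the start up to the first annotated exon, with GATA motifs in capitals, for the 4 of highest mean RPKM among lineage-confined members that met a criterion for full values and have a matched promoter. Alas2, of higher mean RPKM, met none of these criteria. They lie at chr4:119190012-119190245 on the minus strand (Ermap), chr4:134864286-134864535 on the plus strand (Rhd), chr6:41704340-41704575 on the minus strand (Kel) and chr17:36869324-36869573 on the plus strand (Trim10). Each holds 1 GATA motif as printed, and a further one in Kel crosses into the exon.
Ermap: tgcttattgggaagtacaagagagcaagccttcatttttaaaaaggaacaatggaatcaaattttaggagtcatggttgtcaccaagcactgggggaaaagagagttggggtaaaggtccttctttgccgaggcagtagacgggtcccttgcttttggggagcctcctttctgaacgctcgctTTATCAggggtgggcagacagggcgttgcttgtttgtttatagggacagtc
Rhd: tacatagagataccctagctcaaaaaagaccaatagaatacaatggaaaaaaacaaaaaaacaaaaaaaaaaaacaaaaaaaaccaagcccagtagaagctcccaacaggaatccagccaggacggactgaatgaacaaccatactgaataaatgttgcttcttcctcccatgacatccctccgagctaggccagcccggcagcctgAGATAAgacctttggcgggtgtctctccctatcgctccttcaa
Kel: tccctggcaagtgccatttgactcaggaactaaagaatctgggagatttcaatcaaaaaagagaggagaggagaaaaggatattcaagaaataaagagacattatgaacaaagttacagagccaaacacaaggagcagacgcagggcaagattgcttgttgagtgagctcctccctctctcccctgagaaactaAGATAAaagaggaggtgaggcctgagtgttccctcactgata
Trim10: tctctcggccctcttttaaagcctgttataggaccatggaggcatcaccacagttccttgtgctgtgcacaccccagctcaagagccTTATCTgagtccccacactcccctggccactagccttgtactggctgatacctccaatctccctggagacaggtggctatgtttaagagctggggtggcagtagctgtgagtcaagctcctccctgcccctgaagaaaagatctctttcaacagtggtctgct
A match of letters is a description of the window and not a site of binding.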

How the data were processed

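For each library the authors deposited RPKM per Ensembl gene, with a mark for genes at the floor. The submitters' processing notes name STAR and the build mm9, and versions and the counting program were not given in the sources used here. Read counts were not used. Of 23076 entries per file, 3 were empty. Gene identifiers were joined to GENCODE M21 (GRCm38) for symbols and positions, with 21583 matches and 1490 without. Depth came from floors of single-exon microRNA genes, where the floor is 1 read over the length plus an offset of 2 bases. With no counts, counting error was not estimated.

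RPKM were transformed to log2(RPKM + 0.5), and limma 3.58.1 (lmFit, then eBayes with trend) under R 4.3.3 tested every gene whose mean RPKM in the 4 libraries compared reached 0.5. Adjusted p is Benjamini-Hochberg over all genes tested, with a threshold of 0.05. A count without a test took genes that differed 2-fold or more, one way, in each of the 4 library pairs. Values in every library are given for members that passed either criterion in any comparison or were among the 3 of highest mean RPKM in their role, and for others as stated. The procedure was tested on simulated data. The members and lists were chosen with earlier results of these data known. The settings varied were the pseudocount (0.1 or 1), the filter (none, or a mean RPKM of 1), median-ratio scaling, quantile normalization, scaling to the sum without globins, no trend, all 6 libraries in a fit, an adjusted p of 0.1, the replicate block, and leaving out each library. Tables were made with Python 3.11.15 and pandas 2.3.3, and figures with matplotlib 3.10.9. Promoters are printed for 4 members, without bases of annotated exons.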

Additional observations from a re-analysis of the deposited data

How the results depend on the processing

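In mutant vs. wild-type muscle, the count of members past the test (0) became 1 with a pseudocount of 0.1, 3 with a mean RPKM of at least 1, 9 with scaling to the sum without globins, 1 without a trend and 5 at an adjusted p of 0.1, and lay between 0 and 13 when a library was left out, with 13 without wild-type 6 and 1 without wild-type 5. The count of members at least 2-fold different in all pairs (7) became 11 with a pseudocount of 0.1, 1 with a pseudocount of 1, 4 with median-ratio scaling and 3 with quantile normalization, and lay between 6 and 16 when a library was left out, with 14 without mutant 1 and 16 without wild-type 6. In Wnt1-Ribotag vs. wild-type RNA, the count past the test (1) became 0 without a filter and lay between 1 and 6 with a library left out (5 without Wnt1-Ribotag 1, 6 without Wnt1-Ribotag 2), and the 2-fold count (1) lay between 1 and 3 (3 without wild-type 6, 2 without Wnt1-Ribotag 1). In Wnt1-Ribotag vs. mutant RNA, the count past the test (4) became 1 without a filter, 1 with quantile normalization, 9 with all 6 libraries in the fit and 10 at an adjusted p of 0.1, and lay between 1 (without mutant 2) and 20 (without Wnt1-Ribotag 1), with 19 without Wnt1-Ribotag 2. The 2-fold count (13) became 8 with a pseudocount of 1 and lay between 13 and 19 with a library left out. A library left alone in its group is assumed to vary like the other group, and 4482 and 5965 genes then passed against wild-type without Wnt1-Ribotag 1 and 2. Other filters test other numbers of genes. Otherwise the cause was not tested.

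Wnt1-Ribotag and mutant libraries share the replicate numbers 1 and 2, with nothing in the labels to pair them, and across genes the departures of same-numbered libraries from the group average correlated at 0.168. With the replicate block 11 members passed, beside 5.88% of genes, against 4 members and 1.19% of genes without. The wild-type numbers 5 and 6 match no other group, so no paired fit was made with them. The paper compares wild-type sample 1 with mutant sample 1, and sample 2 with sample 2. The labels do not say which of wild-type 5 and 6 is its sample 1.

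Single-gene results were listed under each setting only for the 23 members with full values, so turns among the other 9 are not given. For the 23 the log2 fold change turned direction in the following cases, none of which passed the test under the settings that turned it. In the mutant, Urod (0.040) was -0.017 with scaling to the sum without globins and -0.075 without wild-type 6, and lay between -0.085 without mutant 2 and 0.17 without mutant 1. Ank1 (-0.012) was 0.10 with median-ratio scaling, 0.099 with quantile normalization and 0.088 without wild-type 5, and lay between -0.43 without mutant 1 and 0.41 without mutant 2. Bpgm (-0.085) was 0.028 with median-ratio scaling, 0.041 with quantile normalization, 0.013 without wild-type 5 and 0.059 without mutant 2, and lowest at -0.23 without mutant 1. In Wnt1-Ribotag vs. wild-type RNA the values without wild-type 5 and without wild-type 6 were 0.22 and -0.72 for Gata1, 0.22 and -0.96 for Hemgn, 0.29 and -0.53 for Car2, 0.42 and -0.16 for Epor, 0.77 and -0.30 for Slc4a1, 0.55 and -0.23 for Rhag, 0.87 and -0.015 for Rhd, and 0.61 and -0.32 for Trim10. Without Wnt1-Ribotag 1 and without Wnt1-Ribotag 2 they were -0.087 and 0.72 for Tal1 and -0.002 and 1.01 for Icam4, and Slc4a1 was -0.18 without Wnt1-Ribotag 1 and Gata1 0.21 without Wnt1-Ribotag 2. In Wnt1-Ribotag vs. mutant RNA, Tfrc was 0.12 with scaling to the sum without globins, and Ank1 lay between -0.19 without mutant 2 and 0.65 without mutant 1. Settings that kept direction and side of the threshold numbered 253, 278 and 260 for single genes in the mutant, Wnt1-Ribotag vs. wild-type and Wnt1-Ribotag vs. mutant comparisons.

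Each group has 2 libraries, so the spread within a group is poorly known and a p above the threshold does not show that there is no difference. The comparisons share groups. Wnt1-Ribotag and mutant libraries differ in genotype and in preparation at once. Muscle, blood and liver cells were not separated, and the share of each in a library was not measured. Genes were joined by identifier to a later annotation than the build named for alignment.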
